A study of Mus musculus with 6 samples.

Results

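The genes described here encode the actin cytoskeleton and its contractile apparatus: actin isoforms, filament cross-linkers, tropomyosins, myosin II, adhesion plaque proteins, factors of actin turnover, the ezrin, radixin and moesin (ERM) linkers, and the signalling genes Rhoa, Rhob, Rhoc, Rock1 and Rock2. They are a list of 43 gene symbols, matched through GENCODE names to the Ensembl identifiers of a raw count table, and all 43 were found among its 55416 genes. The rule that defines the list uses no measured value, but the list was chosen with earlier results of these data known.

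The libraries came from mouse 46C embryonic stem cells that had been differentiated to epiblast-like cells (EpiLCs), a culture model of formative pluripotency. Total RNA was depleted of ribosomal RNA and made into stranded libraries. There were 3 libraries from wild-type (WT) cells and 3 from Oct6 knockout (KO) cells, with replicates numbered 1 to 3 in each genotype and described by the submitters as paired. Both genotypes were grown in N2B27 with 1% KSR, bFGF and Activin A on fibronectin for 48 h, with bFGF at 12 and Activin A at 20, in ng/ml by the sample labels and in µg/ml by the series text. The WT samples were the unedited parental 46C cells. The KO samples were made with CRISPR/Cas9 and all came from 1 clone, which carried a homozygous insertion of an adenine in Pou3f1, the gene that encodes OCT6. Every difference reported below is therefore a difference between 1 clone and its parental line, in which the mutation and other properties of the clone cannot be told apart.

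Actin filaments are built from actin monomers with the help of profilin and taken apart by cofilin. Cross-linkers such as filamin and alpha-actinin join filaments, tropomyosins and calponins lie along them, and myosin II pulls on them when its regulatory light chain is phosphorylated, which ROCK and myosin light chain kinase control. The filaments end at adhesion plaques that hold talin, vinculin and zyxin. Many genes of this apparatus are known targets of serum response factor (SRF), which binds a DNA element called the CArG box and works with cofactors of the MRTF family that monomeric actin retains in the cytoplasm.

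As many such genes are known SRF targets, the bases before each gene's start were searched for it. The search looked for CC, then 6 bases that are each A or T, then GG, in the 250 bases upstream of the annotated start of each canonical transcript (GENCODE M39, GRCm39). This element reads alike on both strands. It was present in 193 of the 15694 tested genes with such a window (1.23%) and in 6 of the 158 genes of the wider list described below (3.8%). Of the 43 listed genes, 5 held it (11.6%), among them Acta1, Tagln, Cnn2 and Vcl. All 5 belonged to the 18 listed genes that were lower in KO EpiLCs by the test described below, and none of the 22 listed genes that did not pass that test held one. The windows of these 4 genes are printed here, with that of Srf itself, to show the element and how near to the start it lies. They are written 5′ to 3′ on the gene's strand, with the CArG box in capitals.
Acta1 (chr8:124621687-124621936, minus strand): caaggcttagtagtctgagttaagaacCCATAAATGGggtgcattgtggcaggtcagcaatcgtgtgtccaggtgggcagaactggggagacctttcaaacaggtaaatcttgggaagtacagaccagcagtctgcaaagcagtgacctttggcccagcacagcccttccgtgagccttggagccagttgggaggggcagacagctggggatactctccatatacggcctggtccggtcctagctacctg
Tagln (chr9:45847405-45847654, minus strand): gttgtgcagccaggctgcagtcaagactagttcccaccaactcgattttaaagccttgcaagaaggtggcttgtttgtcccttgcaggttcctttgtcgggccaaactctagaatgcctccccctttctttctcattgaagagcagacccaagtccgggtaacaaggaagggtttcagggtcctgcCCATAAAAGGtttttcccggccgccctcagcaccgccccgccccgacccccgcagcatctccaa
Cnn2 (chr10:79824161-79824410, plus strand): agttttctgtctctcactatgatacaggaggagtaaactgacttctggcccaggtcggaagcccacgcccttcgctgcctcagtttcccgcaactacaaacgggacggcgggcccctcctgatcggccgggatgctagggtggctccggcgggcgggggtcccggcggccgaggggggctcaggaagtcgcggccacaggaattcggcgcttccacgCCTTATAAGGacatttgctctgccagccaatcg
Vcl (chr14:20979216-20979465, plus strand): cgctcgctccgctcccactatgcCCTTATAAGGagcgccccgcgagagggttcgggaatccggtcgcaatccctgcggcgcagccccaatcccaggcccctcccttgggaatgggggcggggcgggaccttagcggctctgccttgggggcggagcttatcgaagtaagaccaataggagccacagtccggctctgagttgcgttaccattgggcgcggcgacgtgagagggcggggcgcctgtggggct
Srf (chr17:46867120-46867369, minus strand): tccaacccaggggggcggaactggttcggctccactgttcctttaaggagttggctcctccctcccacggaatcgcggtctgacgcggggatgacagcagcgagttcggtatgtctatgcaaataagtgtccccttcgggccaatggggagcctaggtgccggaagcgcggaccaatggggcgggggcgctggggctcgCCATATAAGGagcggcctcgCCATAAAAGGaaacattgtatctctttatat

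Counting back from the start, the first base of the element lay at -33 in Cnn2 and at -64 in Tagln. In Acta1 and Vcl the element lay farther out, at -223 and -227. The window of Srf held 2 elements, with first bases at -51 and -31. The octamer ATGCAAAT, which POU factors such as OCT6 recognise, was searched on both strands of the same windows and was found in 235 of the 15694 (1.5%) and in 1 listed gene, Tln1, but in none of the 18 that were lower. The window of Srf held 1 octamer. These matches describe letters in short windows only, and nothing about binding was measured. A CArG box with a mismatch, farther upstream or before another start of the gene was not looked for. Genes without a match may therefore still hold one.

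The libraries held between 10995505 and 14680930 counts. An insertion of 1 base is not seen in counts per gene, so the counts of the targeted gene do not check the labels. Pou3f1 stood at 161, 143 and 122 CPM (counts scaled to library size) in the WT libraries and 127, 141 and 128 CPM in the KO libraries, with a log2 fold change of -0.10 ± 0.11 (SE) and an adjusted p of 0.574 in edgeR's quasi-likelihood test. All 6 EpiLC markers examined (Pou5f1, Sox2, Fgf5, Otx2, Dnmt3a and Dnmt3b) were expressed, their summed level running from 3015 to 3356 CPM in WT and from 3026 to 3203 CPM in KO libraries. Of these markers 3 were higher in KO EpiLCs, Otx2 by 0.92 (adjusted p = 0.00017), Fgf5 by 0.65 (adjusted p = 0.000381) and Sox2 by 0.42 (adjusted p = 0.0283) on the log2 scale, and the other 3 were not called; their part in the results for the actin genes was not tested. The median log2 fold change was -0.40 over 773 tested genes of chromosome 6 and 0.55 over 471 of chromosome 16. Chromosome 6 was not displaced evenly, since the 50 tested genes nearest to Brk1, of the wider list below, had a median of -0.05 and those nearest to Flnc one of -0.57. Of the listed genes, Actg2, Flnc, Cald1 and Zyx lie on chromosome 6 and Mylk on chromosome 16, so their values are given below with those of their neighbours.

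Transcripts of many actin and contractility genes were less abundant in Oct6 KO EpiLCs. Of the 43 genes, 41 had enough counts to be tested, 18 of them were lower in KO EpiLCs at an adjusted p below 0.1, 1 was higher (Mylk) and 22 did not pass. All but Acta1 and Mylk of the tested members, 39 in number, had at least 10 counts in every library. Over all 15746 genes tested, 12.5% were called lower and 11.8% higher, against 43.9% and 2.44% of the tested members. The median log2 fold change of the members was -0.27, whereas that of all genes tested was 0.00. Every role group but the ERM linkers held at least 1 member that was lower. An adjusted p below 0.1 together with a log2 fold change of 1 or more in size was reached by 7 members, against 6.21% of all genes tested. Of these, 6 were lower (Acta1, Tagln, Cnn1, Cnn2, Myl9 and Zyx) and 1 was higher, where 3.30% and 2.92% of all genes tested passed both thresholds in these directions. In GRCm39 the annotation places Acta1 (ENSMUSG00000031972.6) at chr8:124618501-124623661, Tagln (ENSMUSG00000032085.6) at chr9:45840909-45847404, Cnn1 (ENSMUSG00000001349.6) at chr9:22010512-22020926, Cnn2 (ENSMUSG00000004665.11) at chr10:79824410-79831896, Myl9 (ENSMUSG00000067818.7) at chr2:156617084-156623579, Zyx (ENSMUSG00000029860.17) at chr6:42301575-42339894 and Mylk (ENSMUSG00000022836.12) at chr16:34565580-34822790.

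**Figure D1:**
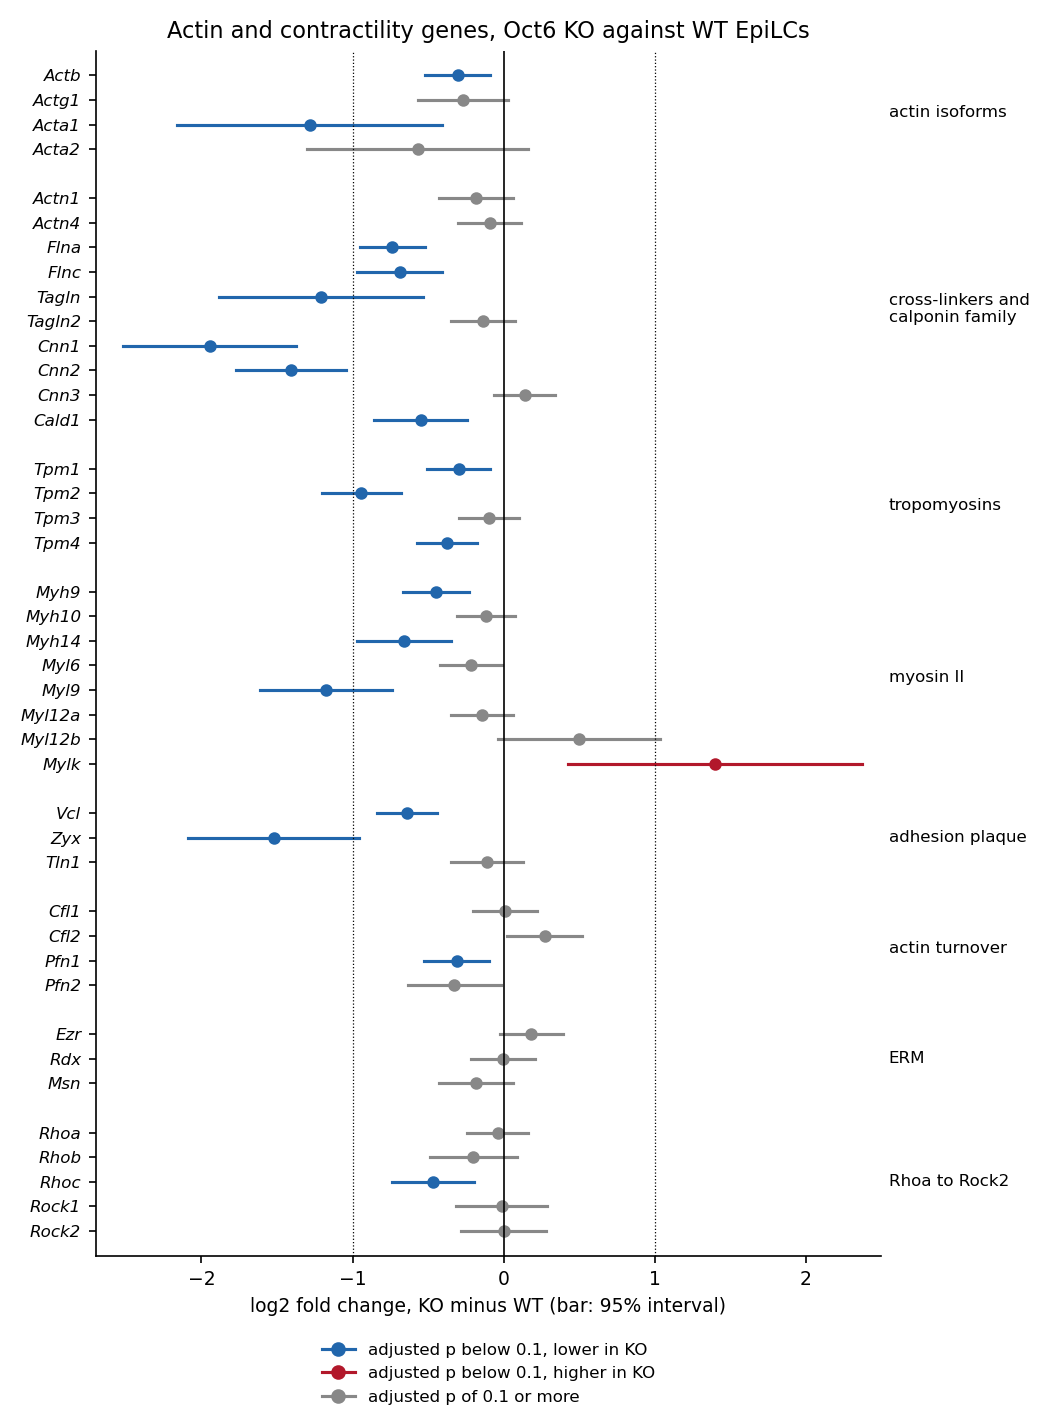
Log2 fold change, KO minus WT, of the 41 tested actin and contractility genes, in their role groups, with bars for the 95% interval of the edgeR fit and 3 libraries per genotype. Blue points are the 18 genes lower at an adjusted p below 0.1, the red point is Mylk, and the 22 grey points, which did not pass, lie between -0.57 and 0.50.

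Single libraries were compared as well. In 20 of the 43 genes every KO library lay below every WT library, and in 3 (Cnn3, Myl12b and Mylk) every KO library lay above; over all genes tested these patterns were found in 17.1% and 16.6%. Comparing each KO library with the WT library of its number, 27 of the 41 tested members were lower in 3 of 3 pairs and 4 were higher in 3 of 3, against 26.2% and 25.9% of all genes tested. The members together took 1.26%, 1.14% and 1.11% of the counts in the WT libraries and 1.02%, 0.894% and 0.943% in the KO libraries. In RNA from a whole culture, fewer cells of a kind and less RNA per cell cannot be told apart. The listed genes were abundant ones, with 24 of the 41 among the top 25% of tested genes by level, and in that top 25% of genes 11.2% of genes were called lower.

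Beta-actin (Actb), the main actin of non-muscle cells, was the most abundant member, at 2708 CPM per kb of transcript in WT and 2194 in KO libraries. Before division by length it stood at 5774, 5080.0 and 4742 CPM in the WT libraries and at 4691, 3976 and 3967 CPM in the KO libraries. The lowest WT library was thus only just above the highest KO library, and the fall was modest, at -0.30 ± 0.10 on the log2 scale (adjusted p = 0.0462). It no longer passed without WT replicate 1, KO replicate 2 or KO replicate 3, when the log2 fold change was -0.22, -0.26 and -0.26 and the adjusted p 0.226, 0.161 and 0.168, nor when set against its chromosomal neighbours, where the log2 fold change was -0.26 (adjusted p = 0.107). Gamma-actin (Actg1), the other cytoplasmic isoform, measured 269.7, 178 and 171 CPM in WT and 180.3, 146 and 187 CPM in KO libraries. These groups overlapped, and the log2 fold change of -0.27 had a 95% interval from -0.57 to 0.03. It passed at an adjusted p of 0.0770 with the replicate number as a block, at 0.0782 with no filter on low counts and at 0.0837 without WT replicate 3 (-0.39), but stood at -0.03 (adjusted p = 0.919) without WT replicate 1. Of the 100-base stretches of Actg1 exons, 46.5% occurred elsewhere in the genome, and how the counting treated reads with several matches is not given in the sources used here.

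The muscle actins were scarce in both genotypes. Skeletal alpha-actin (Acta1) had 2.91, 1.64 and 2.44 CPM in WT and 1.22, 0.386 and 1.28 CPM in KO libraries, where the lowest KO library rested on 5 counts. Its log2 fold change was -1.28 ± 0.42 with an adjusted p of 0.0378, and the call was lost without WT replicate 1 (-1.10, adjusted p = 0.125) or without KO replicate 2 (-0.91, adjusted p = 0.168). Smooth muscle alpha-actin (Acta2), often used as a sign of contractile cells, had a log2 fold change of -0.57 with an interval from -1.30 to 0.16 and overlapping groups; it passed with the replicate block (adjusted p = 0.0723) and without KO replicate 1 (-1.13, adjusted p = 0.0391), but stood at -0.17 (adjusted p = 0.826) without WT replicate 1. Cardiac actin (Actc1) and enteric gamma-actin (Actg2) had at most 7 and 2 counts in any library and were not tested. Divided by transcript length, Actb held 96.6% ± 0.56 of the counted actin transcripts in WT and 96.5% ± 0.46 in KO libraries (mean ± SD, n = 3). The share of Actb thus overlapped between genotypes. Its size depends on how repeated sequence was counted, since 46.5% of the 100-base stretches of Actg1 exons occurred elsewhere in the genome, against 0% for Actb. Actg1 may therefore be undercounted in this pool.

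Among cross-linkers and the calponin family, 6 of 10 genes were lower and 4 did not pass. Filamin A (Flna), which joins filaments into orthogonal networks and anchors them to membrane receptors, had the most CPM per kb of those that fell, 106 in WT and 63.8 in KO libraries. It had 1111, 1108 and 999 CPM in the WT libraries and 729.9, 581 and 621 CPM in the KO libraries, a wide gap between the groups. Its log2 fold change was -0.74 ± 0.10 (adjusted p = 5.21e-05). Filamin C (Flnc), the muscle filamin, had 110.2, 84.5 and 80.6 CPM in WT and 68.9, 52.9 and 49.3 CPM in KO libraries, a change of -0.69 ± 0.13 (adjusted p = 0.0012). Flnc lies on chromosome 6, where its 50 nearest tested genes had a median of -0.57, and relative to these it did not pass (-0.12, adjusted p = 0.637). The alpha-actinins Actn1 and Actn4, which bundle filaments, were not called, with intervals from -0.43 to 0.06 and from -0.30 to 0.12; without KO replicate 3 Actn1 passed at -0.32 (adjusted p = 0.0952).

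Calponins bind along actin filaments and restrain myosin. Calponin 1 (Cnn1), the smooth muscle form, had the lowest log2 fold change of the 43 genes, with 12.2, 8.21 and 8.52 CPM in WT and 3.73, 2.24 and 1.58 CPM in KO libraries. The change was -1.94 ± 0.27 (adjusted p = 5.62e-05), with every KO library at 3.73 CPM or less. Calponin 2 (Cnn2), found in many non-muscle cells, had 81.3, 77.8 and 59.3 CPM in WT and 36.9, 19.1 and 26.3 CPM in KO libraries, at -1.41 ± 0.17 (adjusted p = 1.62e-05). Calponin 3 (Cnn3), the acidic form, did not follow them: its KO libraries all lay above its WT libraries, but at 0.14 with an interval from -0.06 to 0.34 it was not called. Transgelin (Tagln), also called SM22, had 8.73, 4.65 and 5.55 CPM in WT and 4.46, 1.77 and 2.03 CPM in KO libraries (-1.21 ± 0.32, adjusted p = 0.0118). Its non-muscle relative Tagln2 was not called (-0.13, interval -0.35 to 0.08). On either strand, 66.7% of the exon bases of Tagln and 35.1% of those of Cnn1 are shared with exons of other genes (Pcsk7 and Gm48529, and Elof1), which lie on the opposite strand. Sharing of this kind also covers 31.9% of the exon bases of Pfn1, 24.6% of those of Vcl and 15.7% of those of Zyx. Whether the counting used the strand is not given in the sources used here.

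Caldesmon (Cald1), which also restrains myosin on the filament, had 66.6, 48.9 and 71.4 CPM in WT and 47.9, 33.4 and 46.9 CPM in KO libraries. The lowest WT library lay only just above the highest KO library, and the change was -0.55 ± 0.15 (adjusted p = 0.0121). Its neighbours on chromosome 6 had a median of -0.52, and relative to them Cald1 stood at -0.02 (adjusted p = 0.938).

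All 4 tropomyosin genes, whose coiled-coil products lie along filaments and set which proteins may bind them, had negative log2 fold changes, and 3 of them were called. Tpm2, the form best known from muscle, changed most: 36.4, 32.5 and 33.1 CPM in WT against 16.7, 17.5 and 18.9 CPM in KO libraries, with narrow spreads in both groups. This was -0.94 ± 0.13 on the log2 scale (adjusted p = 3.41e-05). Tpm4 followed at -0.38 (adjusted p = 0.00786) and Tpm1 at -0.30 (adjusted p = 0.0432), the latter lost without KO replicate 2 (-0.25, adjusted p = 0.182) or KO replicate 3 (-0.25, adjusted p = 0.165). Tpm3 was not called at -0.10 (interval -0.30 to 0.10). It was the most abundant of the family per kb of canonical transcript, whereas over all annotated exons Tpm4 held more, 45.5% against 32.9% in WT libraries. Tpm2 made up 2.66% ± 0.14 of the tropomyosin transcripts in WT and 1.65% ± 0.20 in KO libraries (mean ± SD, n = 3), while the share of Tpm3 was 41.7% ± 2.5 in WT and 46.3% ± 0.58 in KO libraries, and for both genes the groups did not overlap.

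In myosin II, 3 of 8 genes were lower, 1 was higher and 4 did not pass. Of the heavy chains that form the motor, non-muscle myosin IIA (Myh9) had 261, 263 and 263 CPM in WT and 183, 171 and 223 CPM in KO libraries, so the WT libraries were nearly equal and all above KO. The change was -0.45 ± 0.10 (adjusted p = 0.00461). Myosin IIB (Myh10), at 189.9, 201 and 206 CPM in WT and 179, 183 and 188 CPM in KO libraries, was not called (-0.12, interval -0.31 to 0.08), although its groups also did not overlap. Myosin IIC (Myh14), the scarcest of the heavy chains, had 23.8, 22.9 and 26.6 CPM in WT and 13, 15.2 and 18.2 CPM in KO libraries (-0.66 ± 0.15, adjusted p = 0.00356). Per kb of transcript, the share of Myh9 among the heavy chains was 54.8% ± 0.98 in WT and 49.9% ± 2.8 in KO libraries, and that of Myh10 was 39.5% ± 0.82 in WT and 45.6% ± 2.9 in KO libraries (mean ± SD, n = 3), with no overlap for either gene.

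Phosphorylation of the regulatory light chains switches the motor on. Myl9, the form abundant in smooth muscle, had 30.4, 24.8 and 27.9 CPM in WT and 18.6, 9.95 and 8.42 CPM in KO libraries. It changed by -1.18 ± 0.21 (adjusted p = 0.000514), KO replicate 1 being the KO library nearest to WT. Myl12a, the other main form in these cells, had 82.6, 82.5 and 77.5 CPM in WT and 76.2, 75.1 and 68.7 CPM in KO libraries (-0.14, interval -0.35 to 0.06, not called). Myl12b had 2.76, 2.65 and 2.71 CPM in WT and 3.81, 3.78 and 3.91 CPM in KO libraries; the KO libraries were all higher, but at these counts the interval ran from -0.04 to 1.04 and the gene was not called. Myl12a and Myl12b share 4.89% and 8.89% of all their annotated exon bases with a gene on the same strand, Gm49909. These percentages are of 9457 and 8310 bases, whereas the canonical transcripts used for levels per kb have 3657 and 2226 bases. How reads from shared bases were counted is not given in the sources used here. Per kb of transcript, Myl9 made up 46.1% ± 2.7 of the regulatory light chain transcripts in WT libraries and 28.2% ± 7.9 in KO libraries, and Myl12a 51.1% ± 2.6 and 66.1% ± 7.1 (mean ± SD, n = 3). With 3 libraries against 3, an exact permutation test of such a share cannot go below p = 0.1, so shares are given without a test. The level of Myl9 relative to Myl12a depends on the length used: over all annotated exons, an alternative chosen after the data were seen, the share of Myl9 was 57.6% in WT and 38.3% in KO libraries.

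The essential light chain Myl6 was the second most abundant member per kb of transcript, at 357 CPM per kb in WT and 308 in KO libraries, and was not called (-0.21, interval -0.42 to -0.01), but passed with the replicate block (adjusted p = 0.0566), with library totals alone (adjusted p = 0.0950) and without WT replicate 3 (adjusted p = 0.0837). Myosin light chain kinase (Mylk), which phosphorylates the regulatory light chains, was the member that rose. Its counts were low, at 5, 5 and 11 in the WT libraries and 14, 25 and 16 in the KO libraries, or 0.373, 0.456 and 0.744 CPM against 1.13, 1.93 and 1.2 CPM. The groups did not overlap, and the log2 fold change was 1.40 ± 0.46 (adjusted p = 0.0404). The call rested on few counts and was lost without WT replicate 1 (1.2, adjusted p = 0.131), WT replicate 2 (1.32, adjusted p = 0.121) or KO replicate 2 (1.12, adjusted p = 0.206), and with DESeq2 (1.42, adjusted p = 0.126). The neighbours of Mylk on chromosome 16 had a median of 0.59, relative to which Mylk stood at 0.81 with an adjusted p of 0.279.

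**Figure D2:**
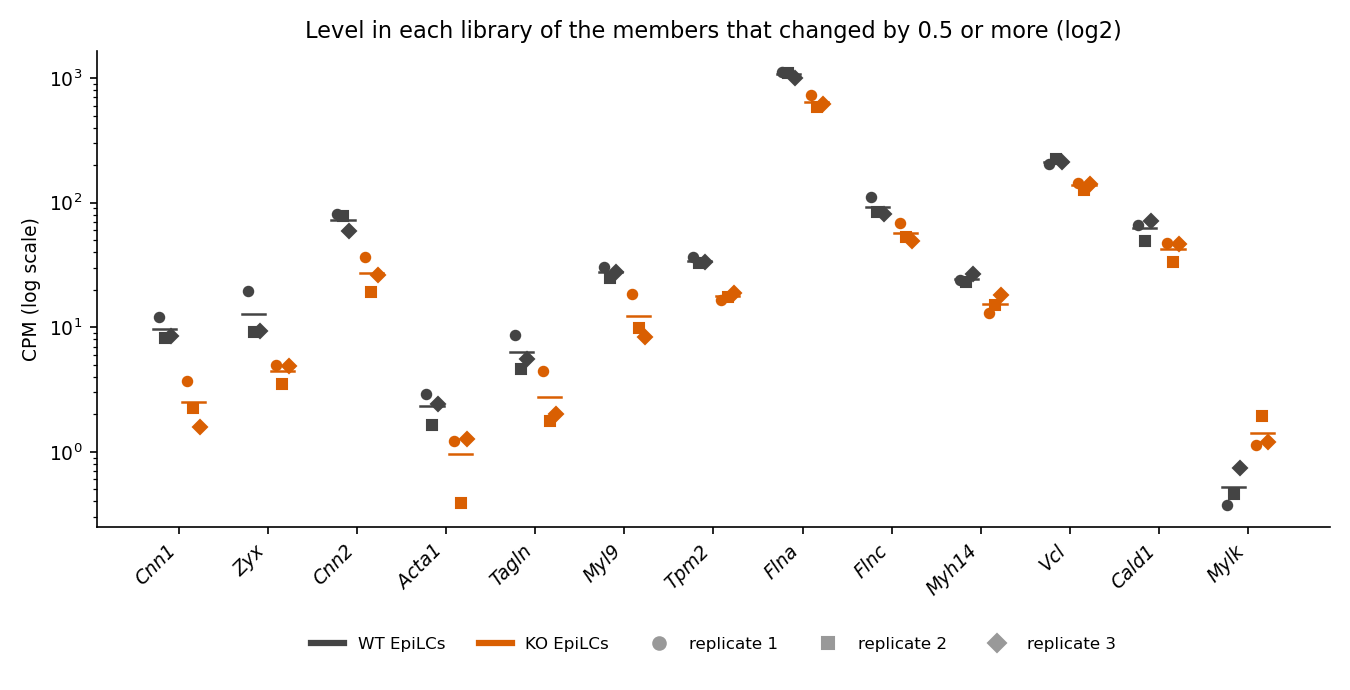
CPM in each library, on a log axis, of the 13 members that were called with a log2 fold change of 0.5 or more in size. WT libraries are dark and KO libraries orange, the symbol gives the replicate number and the line the group mean; WT lies above KO without overlap for each gene but Mylk, where KO lies above.

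At adhesion plaques, where filaments meet integrins, 2 of 3 genes were lower. Vinculin (Vcl), which strengthens the link under tension, had 206, 224 and 212 CPM in WT and 143, 127 and 141 CPM in KO libraries. Both groups were tight, and the change of -0.64 ± 0.10 (adjusted p = 0.000104) lay well outside them. Zyxin (Zyx), a LIM protein recruited to stretched filaments, had 19.7, 9.22 and 9.27 CPM in WT and 4.94, 3.47 and 4.89 CPM in KO libraries. WT replicate 1 had more than the other WT libraries, and the change was -1.52 ± 0.27 with all libraries (adjusted p = 0.000497) and -1.06 without that one. Zyx also lies on chromosome 6, with neighbours at a median of -0.48, and relative to these it stood at -1.04 (adjusted p = 0.0138). Talin (Tln1), which joins integrins to actin, was not called (-0.11, interval -0.35 to 0.13).

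In the remaining groups 2 of 12 genes were called, where 24.3% of all genes tested were called in either direction. Of the turnover genes, profilin 1 (Pfn1) was lower by a small margin (-0.31, adjusted p = 0.0404), a call lost without WT replicate 1 (-0.20, adjusted p = 0.243), without KO replicate 3 (-0.28, adjusted p = 0.143) and relative to its neighbours (-0.13, adjusted p = 0.443). Profilin 2 (Pfn2), cofilin 1 (Cfl1) and cofilin 2 (Cfl2) were not called, with intervals from -0.63 to -0.02, from -0.20 to 0.22 and from 0.03 to 0.52. With the replicate block Pfn2 was lower (adjusted p = 0.0499) and Cfl2 higher (adjusted p = 0.0764). None of the ERM genes, which tie filaments to the plasma membrane, was called by edgeR or by DESeq2 and none had an unadjusted p below 0.05, their log2 fold changes being 0.18 for Ezr, -0.01 for Rdx and -0.18 for Msn. Rhoa, the GTPase that activates ROCK, had 192, 198 and 171 CPM in WT and 187, 173 and 185 CPM in KO libraries. These overlapped fully, and the interval of the change ran from -0.24 to 0.16. Rhoc, its close relative, was lower (-0.47, adjusted p = 0.0143), while Rhob, Rock1 and Rock2 were not called, at -0.20, -0.01 and 0.00. These are transcript levels, and the phosphorylation of myosin was not measured.

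**Figure D3:**
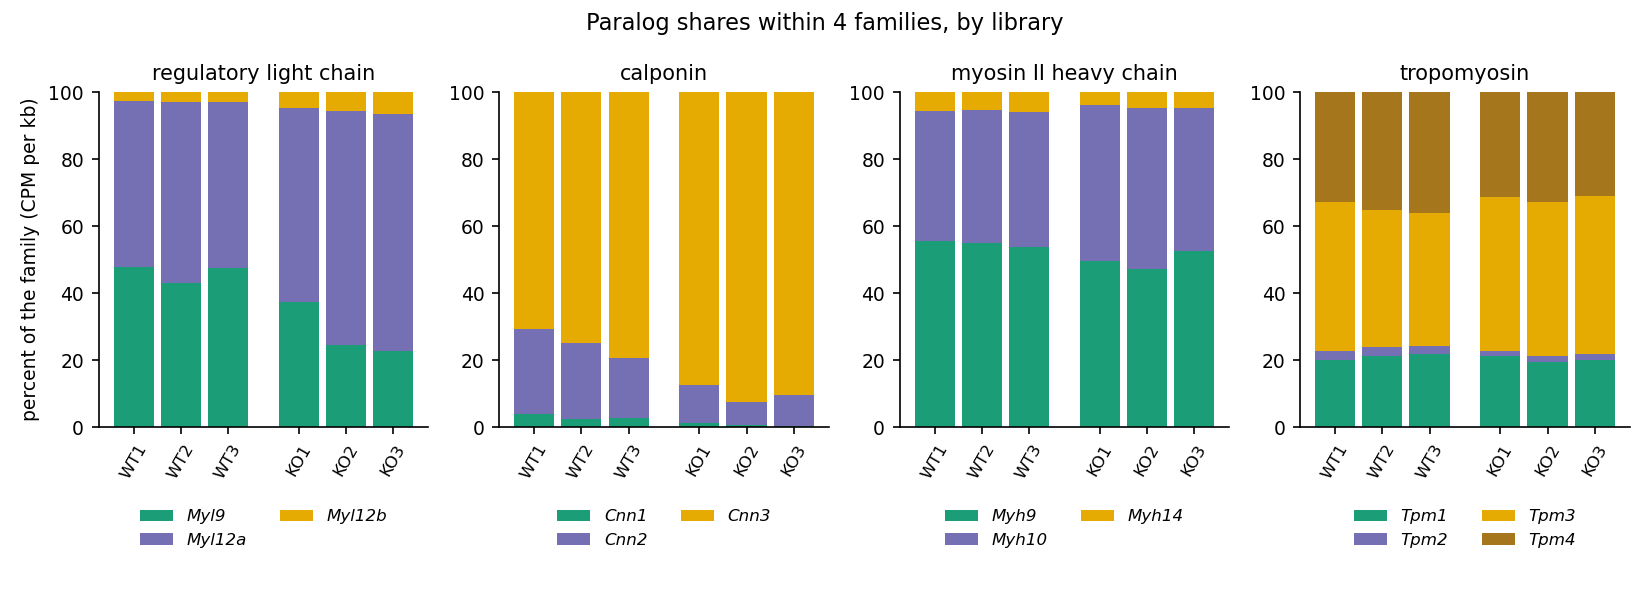
Share of each paralog within 4 families in every library, in percent of the family's summed CPM per kb of canonical transcript, with WT libraries on the left and KO libraries on the right of each panel. The shares of Myl9, Cnn1, Cnn2, Myh9, Myh14 and Tpm2 were smaller in all KO libraries than in all WT libraries, and those of Myl12a, Myl12b, Cnn3, Myh10 and Tpm3 larger.

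Among the calponins, Cnn3 made up 74.9% ± 4.3 of transcripts per kb in WT and 90.2% ± 2.5 in KO libraries, Cnn2 22.2% ± 3.8 and 9.01% ± 2.3, and Cnn1 2.99% ± 0.78 and 0.835% ± 0.31 (mean ± SD, n = 3). Within the ERM, cofilin and profilin families every share overlapped between the genotypes.

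Several of the genes with the largest falls are also markers of smooth muscle and other mesenchymal cells, so lists of other markers of such cells were examined. Of 6 smooth muscle markers outside the gene list (Myh11, Des, Smtn, Lmod1, Synpo2 and Pdgfrb), 1 was lower (Des, -0.82, adjusted p = 0.00555) and 1 was higher (Synpo2, 0.80, adjusted p = 0.0298), and their summed level ran from 28.4 to 32.1 CPM in WT and from 20.1 to 28.4 CPM in KO libraries. Of 8 fibroblast markers, 4 were tested, of which Thy1 was lower (-1.22) and Pdgfra higher (0.94), with sums of 12.0 to 22.4 CPM in WT and 9.18 to 17.0 CPM in KO libraries. Of 6 striated muscle markers, 4 were tested and Myh6 was lower (-0.79), with sums of 60.1 to 134 CPM in WT and 72.9 to 194 CPM in KO libraries. Most of these sums was Ttn, which was not called (0.54, adjusted p = 0.225) but was higher with the replicate block (adjusted p = 4.97e-05). Without Ttn the sums were 13.2 to 16 CPM in WT and 10.4 to 11.8 CPM in KO libraries. Of 7 mesoderm and endoderm markers, 2 were tested and Gata6 was higher (1.35), at sums of 2.91 to 4.65 CPM in WT and 3.63 to 10 CPM in KO libraries. No marker of these lists was at 0 in all libraries. The part of such cells in the lower levels of Cnn1, Tagln, Myl9, Acta1 and Tpm2 was not tested.

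**Figure D4:**
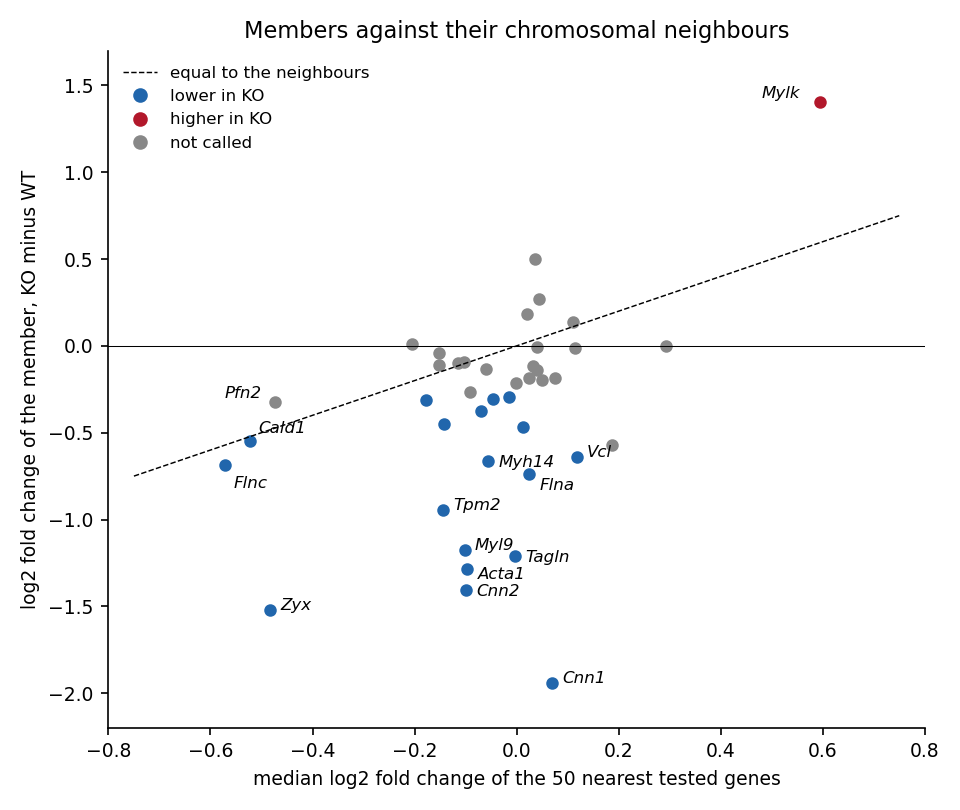
Log2 fold change, KO minus WT, of each tested member (vertical axis) against the median log2 fold change of its 50 nearest tested genes on the chromosome (horizontal axis), with the dashed line where both are equal. Flnc and Cald1 lie close to the line at neighbour medians of -0.57 and -0.52, Zyx lies below it, Mylk above it at 0.59, and Cnn1, Cnn2, Tagln, Acta1 and Myl9 lie far below neighbours that are near 0.

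Taking the chromosomal displacement out of every gene left 14 of the 41 tested members lower and none higher at an adjusted p below 0.1 by edgeR, where 10.2% of all genes tested were lower and 9.82% higher relative to their neighbours. At an unadjusted p below 0.05, 1 member was higher relative to its neighbours, and DESeq2 called 0 higher. The calls lost were those of Actb, Flnc, Cald1, Pfn1 and Mylk. Leaving chromosomes 6 and 16 aside, edgeR called 15 of 37 tested members lower and none higher. Over all genes tested, with these chromosomes included, 12.5% were lower and 11.8% higher. DESeq2 also called none of the 37 higher, and 1 was higher at an unadjusted p below 0.05 in edgeR. Several members were highest in replicate 1 of both genotypes, among them Actb, Flna, Flnc, Tagln, Cnn1, Cnn2, Myl9, Zyx and Pfn1. A fit with the replicate number as a block called 22 members lower and 2 higher (Mylk and Cfl2), where 30.3% of all genes tested were called in either direction, adding Actg1, Acta2, Myl6 and Pfn2 to those that were lower.

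Beyond the 43 genes, a list of 158 further genes of actin assembly, adhesion and contractile signalling was examined, of which 146 were tested. In it, 32 genes were lower (21.9%, against 12.5% of all genes tested) and 19 were higher (13%, against 11.8%), with a median log2 fold change of -0.07. Relative to their chromosomal neighbours, 27 genes of the wider list were lower and 16 higher, where 10.2% and 9.82% of all genes tested were. The counts by group that follow are without that correction. The capping, severing and monomer-binding proteins, the largest group, had the most genes that were lower, 10 of 35 (28.6%), with 4 higher (11.4%). Over all genes tested, 12.5% were lower and 11.8% higher. Of the 146 tested genes, 5 were called with a fall of more than 1 on the log2 scale, all of that group. Over all genes tested, 3.30% passed both thresholds in this direction. Gelsolin (Gsn), which severs filaments in response to calcium, had 35.4, 32.6 and 27.0 CPM in WT and 7.53, 4.86 and 10.4 CPM in KO libraries (-2.06 ± 0.20, adjusted p = 1.23e-06), a larger change than that of any of the 43. The capping protein Capg changed by -1.29 ± 0.12 (adjusted p = 1.11e-06) and remained called relative to its chromosome 6 neighbours (-0.77, adjusted p = 0.00032). The others were Coro1a (-1.56), a coronin, Eps8l2 (-1.46), a relative of the capping protein EPS8, and Ssh3 (-1.19), a slingshot phosphatase that acts on cofilin.

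Other branches held genes called in both directions, as did all genes tested, of which 12.5% were lower and 11.8% higher. The Arp2/3 complex, which nucleates branched filaments, had 2 of 9 subunits lower and 2 higher (22.2% each). The formins and nucleation promoters had 5 lower and 3 higher of 24 (20.8% and 12.5%). Other bundlers and cross-linkers had 3 lower and 4 higher of 13 (23.1% and 30.8%). Adhesion plaque partners had 6 lower and 4 higher of 29 (20.7% and 13.8%). In the wider list 2 genes were called with a rise of more than 1, where 2.92% of all genes tested were. Ppp1r14c, an inhibitor of protein phosphatase 1, had 1.49, 2.10 and 1.89 CPM in WT and 5.83, 6.63 and 4.66 CPM in KO libraries (1.64 ± 0.27, adjusted p = 0.000251). Tagln3, the neuronal transgelin, rose by 1.08 (adjusted p = 0.0628), a call lost on leaving out any library but WT replicate 3 and KO replicate 1, with DESeq2, and relative to its chromosome 16 neighbours (adjusted p = 0.424).

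Srf, which encodes the factor that binds the CArG box, was lower in KO EpiLCs, and its part in the other changes was not tested. It had 74.7, 61.9 and 57.9 CPM in WT and 40.1, 36.2 and 39.6 CPM in KO libraries, with every KO library well below every WT library. The log2 fold change was -0.75 ± 0.12 (adjusted p = 0.000146). Its cofactor Mrtfa, at -0.02 with an interval from -0.45 to 0.40, was not called. Mrtfb, on chromosome 16, was not called either (0.34, interval -0.03 to 0.70), but passed with the replicate block (adjusted p = 0.0398) and without WT replicate 1 (0.57, adjusted p = 0.0226). Myocd, the muscle cofactor, had no count in any library, which allows a level of up to 0.204 to 0.273 CPM by library (3 counts).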

How the data were processed

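Total RNA of 3 WT and 3 KO EpiLC libraries was sequenced. The authors used FastQC for quality checks, Fastp for trimming and STAR for alignment to GRCm39, and deposited raw counts per gene. The STAR version, annotation release, strand use and treatment of reads with several matches are not given in the sources used here. Of 55416 identifiers, 54749 matched GENCODE M39.

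Counts were fitted in R 4.3.3 with edgeR 4.0.16 (filterByExpr, minimum count 10, TMM, quasi-likelihood test, genotype as the only term) and called at a Benjamini-Hochberg adjusted p below 0.1 over all 15746 genes tested. The script was tested on simulated data. CPM used TMM-scaled library sizes, and levels between genes were divided by canonical transcript length. Intervals are 95% intervals of the fit, and ± marks the SE unless SD is stated. For values relative to neighbours, the median log2 fold change of the 50 nearest tested genes was an offset in the KO libraries. Libraries of a genotype differed by a chi-square of 6.94 to 11.8 per degree of freedom, so none was a copy, and p-values measure the spread between these libraries.

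The submitters state that replicates are paired, and deviations from group means correlated at 0.240, 0.298 and 0.118 for libraries of one number and at -0.221 to -0.029 for others. Alternatives were a replicate block, RLE factors, library totals, other filters, DESeq2 1.42.0, a threshold of 0.05 and each library left out. By rule, values per library are printed for called members with a log2 fold change of 0.5 or more in size and for Actb, Actg1, Myh9, Myh10, Myl12a, Myl12b and Rhoa. Genes of the wider list are named from 1 upwards in size, with Srf, Mrtfa and Mrtfb. The sequence of 1 upstream window and the share of 1 gene family are not reported here. The members and lists were chosen with earlier results of these data known.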

Additional observations from a re-analysis of the deposited data

How the results depend on the processing

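With all libraries, 18 members were called lower. This total was from 16 to 20 with each library left out in turn, 22 with the replicate block and 14 relative to chromosomal neighbours. Such totals include calls gained as well as calls lost. Among members called lower, Actb, Acta1 and Pfn1 were lost and Pfn2 was gained without WT replicate 1. Without KO replicate 2, Actb, Acta1 and Tpm1 were lost and Pfn2 was gained. Without KO replicate 3, Actb, Tpm1 and Pfn1 were lost and Actn1 was gained. No member that was called in any of these fits changed sign. The number of members called higher, 1, was 0 with at least 10 counts in every library, 0 with DESeq2, 2 with the replicate block, 0 relative to neighbours, and from 0 to 2 with a library left out. The members called with a log2 fold change of 1 or more in size, 7 in number, were from 4 to 8 with a library left out, 4 of them without WT replicate 1 and 4 without KO replicate 2. Relative to neighbours, 0 members were called higher, against 1 with the replicate block and from 0 to 1 with a library left out. In the wider list 19 genes were called higher, and 29 with the replicate block. The replicate block took away no member's call. The cause of these differences was not tested. Each genotype had 3 libraries, and Mylk and Acta1 had as few as 5 counts in a library, which limits their precision.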
